A study of Mus musculus with 7 samples.

Results

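The level of 9 genes that mark microglia was followed in macrophages sorted from mouse gliomas: Sall1, Cx3cr1, Siglech, Fcrls, Tmem119, Slc2a5, Olfml3, Sparc and Bin1. They were taken as a named list of 9 out of 55385 gene IDs counted in every library, and each ID was matched to its mouse symbol. Macrophages were sorted by flow cytometry from tumours that grew in C57BL/6 mice after intracranial injection of 100000 cells of the isogenic glioma line QPP7. In the shChi3l1 group (3 libraries) the injected cells carried a hairpin that knocks down Chi3l1, the gene of the secreted glycoprotein chitinase-3-like-1, and in the shSC group (4 libraries) they carried a control hairpin. All groups shared the mouse strain, the QPP7 line and the sort, and the hairpin was in the tumour cells, not in the macrophages. The hairpin sequences, the age and sex of the mice, the days of growth, the antibodies of the sort and whether 1 library is 1 mouse are not stated in the labels. All p-values therefore describe only how these libraries vary, which may be partly technical.

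Microglia are the resident macrophages of the brain. They arise from yolk-sac progenitors, renew themselves locally, and hold their identity through signals of the brain such as TGF-beta and through transcription factors that include Sall1. In a glioma they lie beside macrophages that derive from blood monocytes, and most of the genes described here are known to be far higher in resting microglia than in monocyte-derived cells. Several of them fall when microglia are activated. In a sorted bulk population, fewer microglia and less of each transcript per microglial cell cannot be told apart.

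The reads assigned to genes numbered 23174989 to 36502664 in shChi3l1 and 19169129 to 32590781 in shSC libraries. Chi3l1 itself, annotated as Chil1, had 28, 31 and 7 reads in shChi3l1 libraries 1, 2 and 3, against 23, 28, 24 and 18 reads in shSC libraries 1 to 4, so in these sorted cells it is no check of a knockdown made in the tumour cells. The summed level of 10 pan-macrophage genes was 22940 to 44659 CPM (read counts scaled to a common library size per 1000000 reads) in shChi3l1 and 17344 to 28955 CPM in shSC libraries. Most of it came from Lyz2, at 15677 to 33969 CPM in shChi3l1 and 10458 to 22122 CPM in shSC libraries, which is also a monocyte-derived macrophage gene. Others of the 10 varied more, such as Csf1r, from 249 to 2613 CPM, or less, such as Cd68, from 610 to 1379 CPM. T and NK cell markers were also present, at 157 to 1450 CPM in shChi3l1 and 157 to 1171 CPM in shSC libraries. The library shChi3l1 3 stood apart: it was the highest of the 7 libraries for all 9 microglia genes, against 14.6% of the 15448 tested genes that had their highest level there. Results are therefore given with and without it.

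All 9 genes had a higher fitted level in shChi3l1 than in shSC macrophages, and none of the differences passed the test. The median log2 fold change over the 9 genes was 1.62, beside 0.07 over all tested genes, of which 57.6% were above 0. At an adjusted p of 0.05, edgeR's quasi-likelihood test called 0 of the 9 genes and 0% of all tested genes, with an adjusted p of 0.9998 for each of the 9. At an unadjusted p under 0.05 there were 4 of the 9 (Slc2a5, Siglech, Sparc and Cx3cr1), all higher in shChi3l1, against 0.906% of all tested genes that were higher at that level and 0.576% that were lower. No member separated the groups completely, whereas 1.24% of tested genes did so with shChi3l1 higher and 1.25% with shChi3l1 lower. All 9 were also above 0 with library totals in place of TMM scaling, where 35.9% of tested genes were. Without shChi3l1 3 the median of the 9 was 0.32 with 8 of 9 above 0, against 55.8% of tested genes.

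**Figure D1:**
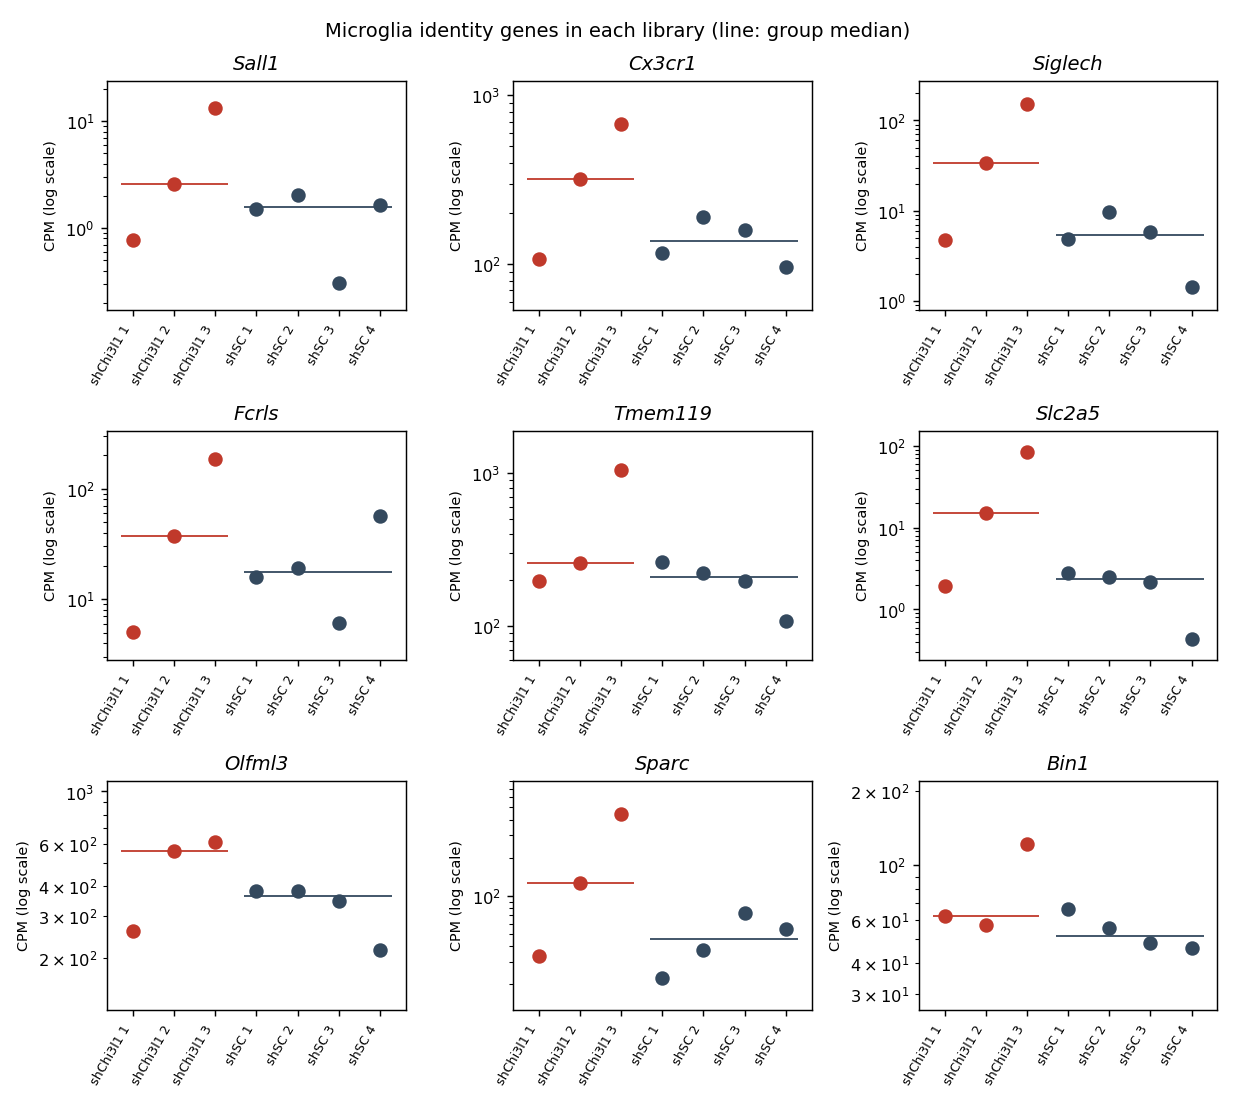
Level of each of the 9 genes in CPM (vertical, log scale) in the 3 shChi3l1 libraries (red, left) and the 4 shSC libraries (dark, right), with each group's median as a line. The highest point of every panel is shChi3l1 3, and shChi3l1 1 lies within or below the shSC range in all 9.

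The transcription factor Sall1 is a zinc-finger repressor that in mice sets microglia apart from other brain macrophages. Sall1 (ENSMUSG00000031665.7, mm10 chromosome 8, 89027235 to 89044162, minus strand) had 0.766, 2.61 and 13.2 CPM in shChi3l1 libraries 1, 2 and 3, against 1.52, 2.06, 0.307 and 1.63 CPM in shSC libraries 1 to 4. It was the scarcest of the 9 per length in 6 of the 7 libraries, resting on 9 reads in shSC 3 and 325 reads in shChi3l1 3. Its highest levels were in shChi3l1 3 and shChi3l1 2, and shChi3l1 1 was above only the lowest shSC library, so the groups overlapped. Its log2 fold change came to 2.00 (SE 0.92; edgeR unadjusted p = 0.0582, adjusted p = 0.9998), and without shChi3l1 3 it was 0.30 (SE 0.86).

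Of the surface receptors, Cx3cr1 encodes the receptor of fractalkine, the chemokine through which neurons signal to microglia; in mice, monocytes and other macrophages carry it too. Cx3cr1 (ENSMUSG00000052336.7, chromosome 9, 119901616 to 120069879, minus strand) had 108, 321 and 676 CPM in shChi3l1 libraries 1, 2 and 3, against 117, 191, 159 and 96.1 CPM in shSC libraries 1 to 4. Both shChi3l1 2 and shChi3l1 3 lay above every shSC library, while shChi3l1 1 was within the shSC range. Its log2 fold change was 1.39 (SE 0.56; edgeR unadjusted p = 0.0348, adjusted p = 0.9998) and 0.61 (SE 0.52) without shChi3l1 3.

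Siglech encodes a sialic acid-binding lectin of the immunoglobulin superfamily that marks microglia and, outside the brain, plasmacytoid dendritic cells in mice. Siglech (ENSMUSG00000051504.18, chromosome 7, 55768178 to 55778925, plus strand) had 4.68, 34.1 and 152 CPM in shChi3l1 libraries 1, 2 and 3, against 4.89, 9.77, 5.87 and 1.42 CPM in shSC libraries 1 to 4. The level in shChi3l1 3 was 15.6 times that of the highest shSC library, and that in shChi3l1 2 was 3.5 times, but shChi3l1 1 lay below 3 of the 4 shSC libraries. Siglech differed by a log2 fold change of 3.53 (SE 1.00; edgeR unadjusted p = 0.00631, adjusted p = 0.9998), or 1.82 (SE 0.84) without shChi3l1 3. Among 10 other markers of plasmacytoid dendritic cells, 5 were above and 5 below 0. Their summed level was 1264 to 1714 CPM in shChi3l1 and 567 to 1433 CPM in shSC libraries, most of it from Bst2 and Irf7, which many cell types express. The other 8, separated after the values were seen, summed to 88.8, 67.2 and 196 CPM in shChi3l1 libraries 1, 2 and 3, against 35.3, 110, 163 and 75.7 CPM in shSC libraries 1 to 4. That sum was highest in shChi3l1 3, as Siglech was, but more than any other gene it reflects Ly6d, at 106 CPM there and 105 CPM in shSC 3. Spib was also highest in shChi3l1 3, whereas Klk1, Ccr9, Tcf4, Pacsin1, Cox6a2 and Runx2 were each highest in an shSC library. None of the 10 was at 0 in every library, and the part of such cells in the Siglech values was not tested.

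Fcrls encodes an Fc receptor-like scavenger receptor that is strongly enriched in mouse microglia. Fcrls (ENSMUSG00000015852.13, chromosome 3, 87250758 to 87263738, minus strand) had 5.06, 37.3 and 183 CPM in shChi3l1 libraries 1, 2 and 3, against 15.8, 19.2, 6.11 and 56.8 CPM in shSC libraries 1 to 4. It was the only one of the 9 whose second highest level was in shSC 4, the library that was lowest for 6 of the others. The groups overlapped, with shChi3l1 1 the lowest of all 7 libraries and shChi3l1 2 below shSC 4. The log2 fold change of 1.62 (SE 1.02; edgeR unadjusted p = 0.148, adjusted p = 0.9998) became -0.20 (SE 0.94) without shChi3l1 3 and 2.45 (SE 1.10) without shSC 4.

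Tmem119 and Slc2a5 encode proteins of the cell membrane. Tmem119, a single-pass protein widely used to stain microglia, was the most abundant of the 9 per length in every library. Tmem119 (ENSMUSG00000054675.5, chromosome 5, 113793729 to 113800516, minus strand) had 197, 258 and 1038 CPM in shChi3l1 libraries 1, 2 and 3, against 263, 224, 197 and 108 CPM in shSC libraries 1 to 4. Apart from shChi3l1 3, no shChi3l1 library exceeded the highest shSC library, and the groups overlapped. Its log2 fold change was 1.33 (SE 0.60; edgeR unadjusted p = 0.0528, adjusted p = 0.9998) and 0.20 (SE 0.46) without shChi3l1 3.

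Slc2a5 encodes the fructose transporter GLUT5, which in the brain is largely microglial. Slc2a5 (ENSMUSG00000028976.10, chromosome 4, 150119283 to 150144169, plus strand) had 1.92, 14.9 and 83.9 CPM in shChi3l1 libraries 1, 2 and 3, against 2.77, 2.51, 2.15 and 0.43 CPM in shSC libraries 1 to 4. Among the 9 genes it spanned the widest range, 195-fold between shChi3l1 3 and shSC 4, where it rested on 10 reads. Its level in shChi3l1 2 was 5.38 times that of the highest shSC library, and shChi3l1 1 was among the shSC libraries. Its log2 fold change of 4.09 (SE 1.08; edgeR unadjusted p = 0.00425, adjusted p = 0.9998) became 2.10 (SE 0.87) without shChi3l1 3, in both cases the largest of the 9.

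Olfml3 and Sparc encode secreted proteins. Olfml3, an olfactomedin-like glycoprotein, was the second most abundant per length in 6 of the 7 libraries. Olfml3 (ENSMUSG00000027848.12, chromosome 3, 103722222 to 103738001, minus strand) had 260, 564 and 613 CPM in shChi3l1 libraries 1, 2 and 3, against 380, 380, 346 and 216 CPM in shSC libraries 1 to 4. It was nearly as high in shChi3l1 2 as in shChi3l1 3, both above every shSC library, with shChi3l1 1 above only shSC 4. Its log2 fold change was the smallest of the 9, 0.53 (SE 0.40; edgeR unadjusted p = 0.216, adjusted p = 0.9998), or 0.32 (SE 0.48) without shChi3l1 3.

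Sparc, a matricellular protein that modulates contacts between cells and matrix, is made by microglia but also by endothelial cells and astrocytes. Sparc (ENSMUSG00000018593.13, chromosome 11, 55394500 to 55423183, minus strand) had 33.3, 127 and 445 CPM in shChi3l1 libraries 1, 2 and 3, against 22.4, 37.6, 72.6 and 54.4 CPM in shSC libraries 1 to 4. The level in shChi3l1 3 was 6.13 times that of the highest shSC library and the level in shChi3l1 2 was 1.75 times, with shChi3l1 1 within the shSC range. Its log2 fold change was 2.11 (SE 0.75; edgeR unadjusted p = 0.0202, adjusted p = 0.9998) and 0.79 (SE 0.62) without shChi3l1 3. Endothelial markers had 6 of 9 tested genes above 0, where 57.6% of all tested genes were (median log2 fold change 0.25), and without shChi3l1 3 it was 3 of 9 with a median of -0.53. They had a summed level of 24.7 to 106 CPM in shChi3l1 and 26.3 to 79.2 CPM in shSC libraries. Their sum was highest in shChi3l1 3, none of the 10 was at 0 there, and their part in the Sparc values was not tested.

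Bin1 encodes a membrane-bending adaptor of endocytosis that is expressed in many cell types, microglia included. Bin1 (ENSMUSG00000024381.16, chromosome 18, 32377230 to 32435737, plus strand) had 62.2, 57.2 and 122 CPM in shChi3l1 libraries 1, 2 and 3, against 66.6, 55.4, 48.3 and 46.3 CPM in shSC libraries 1 to 4. It was the only one of the 9 for which shChi3l1 1 was above the shSC median, and apart from shChi3l1 3 the groups overlapped; its whole range over the 7 libraries was 2.64-fold. Exon bases shared with an overlapping gene made up 6.22% of Bin1 and 1.73% of Cx3cr1, and the other 7 shared none. The log2 fold change of Bin1 was 0.57 (SE 0.36; edgeR unadjusted p = 0.14, adjusted p = 0.9998), or 0.14 (SE 0.37) without shChi3l1 3.

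**Figure D2:**
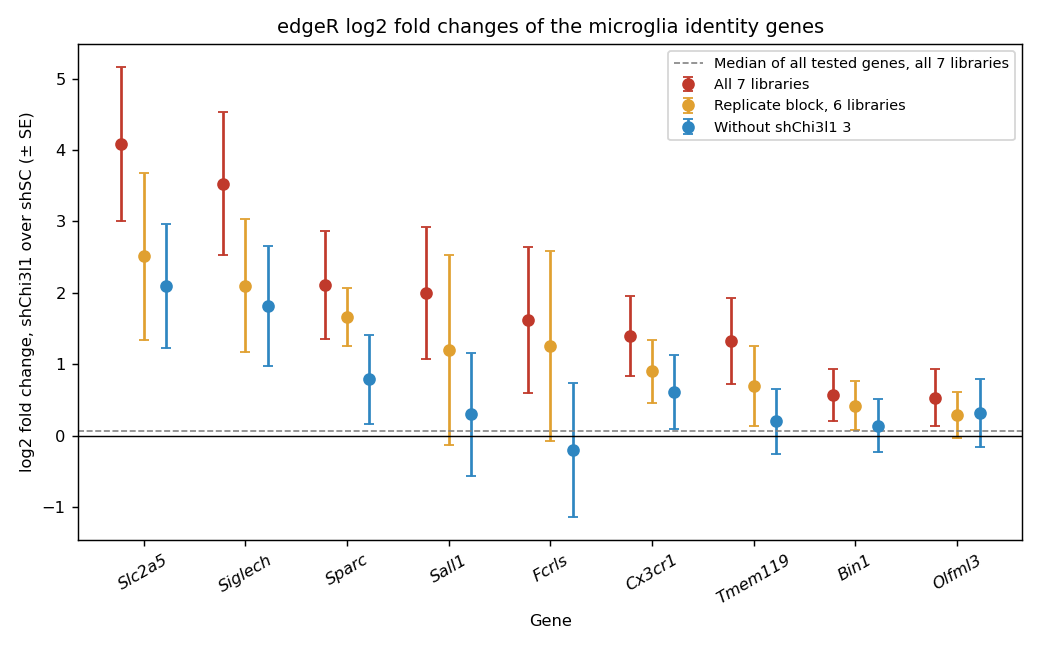
edgeR log2 fold changes of the 9 genes, shChi3l1 over shSC, with standard errors, in all 7 libraries (red), with the replicate number as a block in 6 libraries (yellow) and without shChi3l1 3 (blue); the dashed line is the median of all tested genes. Slc2a5 is highest in all 3 fits, at 4.09, 2.51 and 2.10, and Fcrls crosses 0 to -0.20 without shChi3l1 3.

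The sizes of the differences were unequal among the 9 genes. Relative to the shSC median, the level in shChi3l1 3 was 1.69 times for Olfml3, 2.36 for Bin1, 4.9 for Cx3cr1 and 4.93 for Tmem119. It was 8.37 times for Sall1, 9.67 for Sparc and 10.4 for Fcrls, and it reached 28.3 times for Siglech and 36 for Slc2a5. In shChi3l1 2 the same ratio ran from 1.1 for Bin1 to 6.39 for Slc2a5, with all 9 above 1. In shChi3l1 1 it was below 1 for 8 of the 9, from 0.289 for Fcrls to 0.935 for Tmem119, whereas 50.1% of all tested genes lay below their shSC median there.

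Compared per length, the genes kept much of their order from library to library. In shSC libraries the mean level per kilobase of exon was 85.5 ± 28.4 CPM for Tmem119, 53.7 ± 12.6 for Olfml3 and 31.2 ± 9.37 for Cx3cr1 (SD, n = 4). Bin1 (13.2 ± 2.22), Sparc (12.3 ± 5.71) and Fcrls (10.5 ± 9.53) came next on that scale, and Siglech (1.62 ± 1.01), Slc2a5 (0.577 ± 0.31) and Sall1 (0.262 ± 0.143) were lowest. Of the 8 neighbouring places in the shSC order, 1 was free of overlap between libraries, that of Cx3cr1 above Bin1. In shChi3l1 libraries no neighbours were free of overlap. There Tmem119 averaged 215 ± 202 CPM per kilobase, Cx3cr1 81.7 ± 63.7, Olfml3 77.7 ± 31 and Sparc 53.3 ± 57 (SD, n = 3). Fcrls averaged 32.2 ± 40.6, Bin1 19.6 ± 8.8, Siglech 18.8 ± 23.1, Slc2a5 9.87 ± 13 and Sall1 1.05 ± 1.28 CPM per kilobase.

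Library by library, the 9 genes moved largely together over all 7 libraries (median pairwise Pearson's r of log2 CPM 0.774), and less so without shChi3l1 3 (0.382). Their summed level was 673, 1416 and 3326 CPM in shChi3l1 libraries 1, 2 and 3, against 874, 921, 837 and 581 CPM in shSC libraries 1 to 4. Most of the sum came from Tmem119, Olfml3 and Cx3cr1. All 9 genes in shChi3l1 3 lay above every shSC library, where 22.2% of tested genes did. In shChi3l1 2 it was 6 of 9, with Fcrls, Tmem119 and Bin1 below the highest shSC library. Both libraries exceeded every shSC library for these 6, against 11.2% of tested genes, and shChi3l1 2 was second highest of all 7 libraries for them, against 13.6%. Of the shSC libraries, shSC 4 was the lowest of all 7 for 6 genes (Cx3cr1, Siglech, Tmem119, Slc2a5, Olfml3 and Bin1), where 16.1% of tested genes were lowest. After each gene's mean log2 CPM was subtracted, the average over the 9 genes was -0.91, 0.80 and 2.50 in shChi3l1 libraries 1, 2 and 3, against -0.48, -0.20, -0.77 and -0.94 in shSC libraries 1 to 4.

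**Figure D3:**
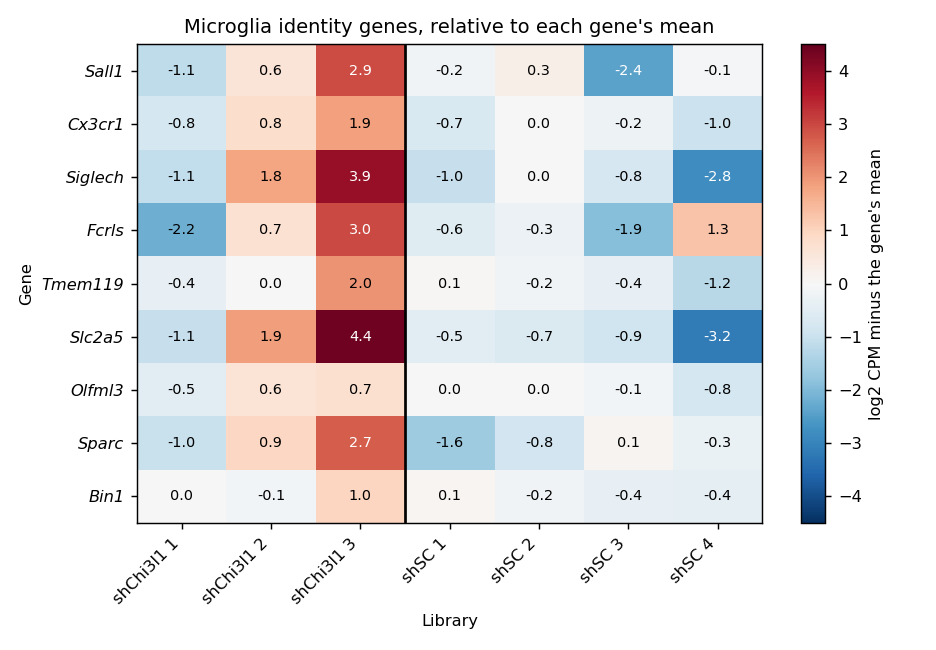
log2 CPM of each gene (rows) in each library (columns, shChi3l1 left of the line and shSC right) minus that gene's mean over the 7 libraries. The shChi3l1 3 column is above the mean for all 9 genes and the shChi3l1 2 column for 8, while shSC 4 is below it for 8 genes and above it for Fcrls.

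Set against the shSC library of the same replicate number, the 3 shChi3l1 libraries did not go one way. In pair 1, 8 of the 9 genes were lower in shChi3l1 and Sparc was higher, with a median log2 difference of -0.42, where 53.8% of tested genes were higher in shChi3l1. In pair 2 all 9 were higher, with a median of 0.75 and a range from 0.05 for Bin1 to 2.56 for Slc2a5, where 50.7% of tested genes were higher. In pair 3 all 9 were higher, with a median of 2.62 and a range from 0.82 for Olfml3 to 5.35 for Sall1, where 49.4% of tested genes were higher. A fit with replicate number as a block, over 6 libraries because shSC 4 has no partner, gave a median log2 fold change of 1.20. In it all 9 were above 0, where 52.4% of tested genes were, and 0 passed. The largest were Slc2a5 at 2.51 (SE 1.17) and Siglech at 2.10 (SE 0.93), and Sparc, at 1.66 (SE 0.41), had the smallest edgeR unadjusted p, 0.00688 (adjusted p = 1).

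Pearson's r of log2 CPM across the 7 libraries was positive for all 36 pairs of genes, and Spearman's rho for 35. The r had a median of 0.774, from 0.481 for Fcrls with Olfml3 to 0.989 for Siglech with Slc2a5, and the rho had a median of 0.679, from 0 for Sparc with Bin1 to 1. In exact two-sided permutation tests over every order of the 7 libraries, 17 pairs had an unadjusted p under 0.05 for r and 12 for rho. After Benjamini-Hochberg adjustment over the 36 pairs these were 13 and 4. Points share library, depth and cell makeup, and the genes were chosen as microglia markers with earlier results of these data known. The adjusted values are therefore not independent evidence that the genes move together. Taken as deviations from the mean of each hairpin group, the median r was 0.697. These deviations still include shChi3l1 3, and without that library the median r of log2 CPM was 0.382.

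The 6 pairs among Cx3cr1, Siglech, Slc2a5 and Olfml3 had the highest r of the 36 once shChi3l1 3 was left out. Cx3cr1 with Siglech had an r of 0.98 and a rho of 1 (exact permutation p = 0.000198 and 0.000397; adjusted p = 0.00357 and 0.00714), and the r p-value is the smallest that these orders can give. Siglech with Slc2a5 had an r of 0.989 and a rho of 0.893 (exact permutation p = 0.00179 and 0.0123; adjusted p = 0.0107 and 0.0554). Slc2a5 with Olfml3 had an r of 0.93 and a rho of 1 (exact permutation p = 0.000198 and 0.000397; adjusted p = 0.00357 and 0.00714). Without shChi3l1 3 these 3 pairs had r of 0.947, 0.971 and 0.943, and without the 2 libraries farthest from the median of the first gene, shChi3l1 2 and shChi3l1 3, they had r of 0.848, 0.919 and 0.876. Over all 6 pairs among Cx3cr1, Siglech, Slc2a5 and Olfml3 the r without shChi3l1 3 was 0.871 to 0.971, and without shChi3l1 2 and shChi3l1 3 it was 0.62 to 0.919. This group of 4 was picked after its values were seen.

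Fcrls had the lowest median r with its 8 partners, 0.574 over all libraries and 0.0642 without shChi3l1 3. Over all libraries the medians of the others lay between 0.728 for Sparc and 0.889 for Cx3cr1. Without shChi3l1 3 they were 0.299 for Sall1, 0.325 for Bin1 and 0.377 for Sparc, and 0.631 to 0.679 for the remaining 5. Fcrls had 1 close partner, Sall1, with an r of 0.904 and a rho of 0.857 (exact permutation p = 0.00556 and 0.0238; adjusted p = 0.0188 and 0.0952), and an r of 0.788 without shChi3l1 3. Sparc with Bin1 had an r of 0.643 and a rho of 0 (exact permutation p = 0.14 and 1), and an r of -0.507 without shChi3l1 3. Over all 36 pairs the median r was 0.382 without shChi3l1 3, with 31 pairs above 0. Without the 2 libraries farthest from each first gene's median it was 0.477, with 24 pairs above 0, so for the other 12 pairs the positive relation rested on those libraries.

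**Figure D4:**
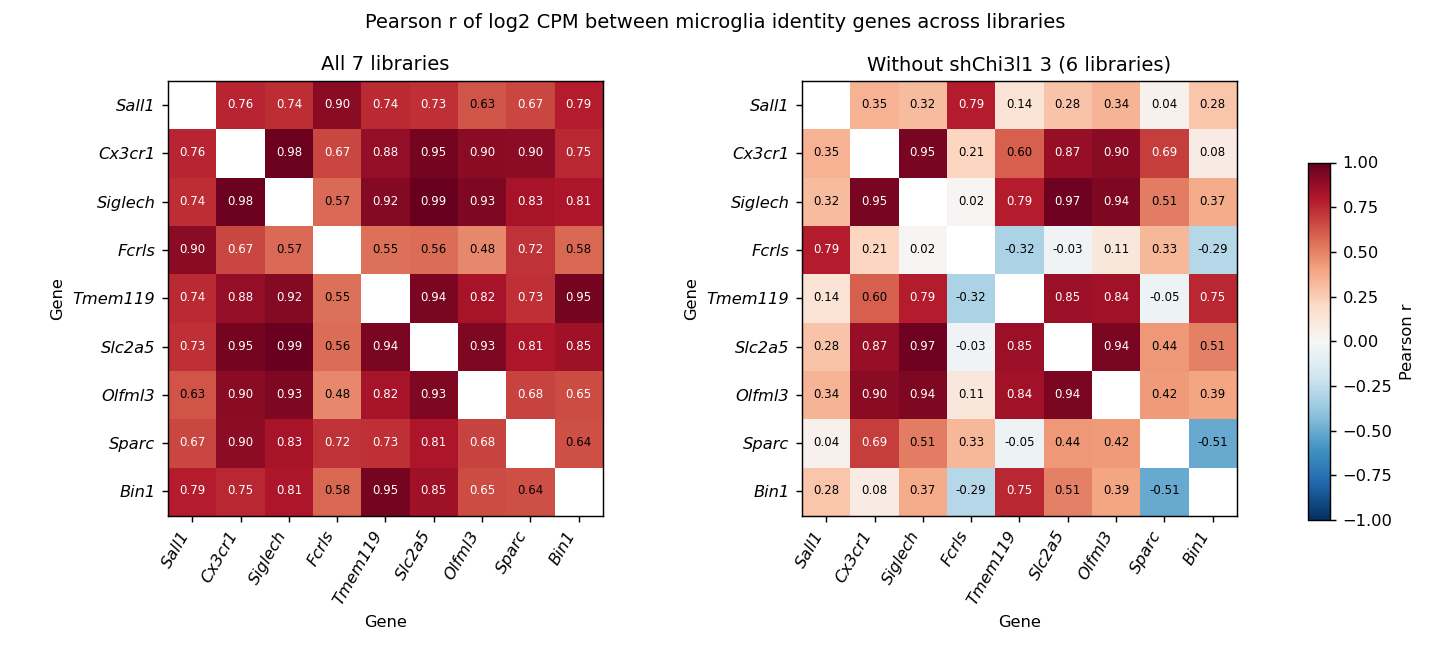
Pearson's r of log2 CPM between each pair of the 9 genes over all 7 libraries (left) and over 6 libraries without shChi3l1 3 (right), on a colour scale from -1 to 1. The block of Cx3cr1, Siglech, Slc2a5 and Olfml3 stays dark on the right, with r from 0.871 to 0.971, while the values of Fcrls turn pale or negative except with Sall1.

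The tightest pair by r, Siglech and Slc2a5, and Olfml3 of the same 4 genes differ in the CG content of their promoters. These are shown to set genes that moved together beside their upstream sequence, from RefSeq on GRCm38.p6, the assembly also called mm10. Each is read 5′ to 3′ on the gene's strand, covers the bases of the RefSeq promoter window that lie before the annotated gene, and has CG dinucleotides in capitals.
Siglech (chr7:55767934-55768177, plus strand): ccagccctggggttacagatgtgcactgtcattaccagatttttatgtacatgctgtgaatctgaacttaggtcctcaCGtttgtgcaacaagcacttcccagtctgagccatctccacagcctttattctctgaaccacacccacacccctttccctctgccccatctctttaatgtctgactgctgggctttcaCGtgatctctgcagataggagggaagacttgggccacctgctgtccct
Slc2a5 (chr4:150119094-150119282, plus strand): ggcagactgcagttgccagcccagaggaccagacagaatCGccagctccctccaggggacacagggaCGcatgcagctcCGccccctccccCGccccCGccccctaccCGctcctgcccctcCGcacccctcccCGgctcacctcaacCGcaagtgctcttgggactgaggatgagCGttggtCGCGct
Olfml3 (chr3:103738002-103738251, minus strand): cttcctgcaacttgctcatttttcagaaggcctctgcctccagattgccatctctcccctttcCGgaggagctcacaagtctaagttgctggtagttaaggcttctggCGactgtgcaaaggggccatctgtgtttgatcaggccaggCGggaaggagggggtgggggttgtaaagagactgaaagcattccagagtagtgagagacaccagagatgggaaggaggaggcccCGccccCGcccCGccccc
CG dinucleotides numbered 2 in the 244 bases of Siglech, 12 in the 189 bases of Slc2a5 and 6 in the 250 bases of Olfml3. In full windows of 250 bases before to 50 after the start, Siglech held 2, Slc2a5 15 and Olfml3 8, and the median of all 32851 windows was 7. Windows of 7 of the 9 genes were searched, and none of Tmem119 or Bin1 was among them. On both strands the letters GAGGAAG, a core recognised by the myeloid factor PU.1, were in 1 of the 7 (Fcrls) and in 13.6% of all windows. TGAGTCA, the AP-1 core, was in none of the 7 and in 5.2% of all windows, and TATAAA was in 1 (Fcrls) and in 13.6% of all windows.

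Other microglia genes, a list of 20 that shares no member with the 9, had values in the same direction. Of the 19 tested, 19 had a log2 fold change above 0, where 57.6% of all tested genes did. Their median was 1.09, and 0 passed an adjusted p of 0.05 in edgeR's test. With plain library totals 17 of 19 were above 0, where 35.9% of tested genes were. At an unadjusted p under 0.05 there were 8, all higher in shChi3l1, against 0.906% of all tested genes that were higher at that level. Without shChi3l1 3 the count above 0 was 18 of 19, against 55.8% of tested genes, and the median was 0.71. The number at an unadjusted p under 0.05 was then 1, where 85 of 16202 tested genes were higher at that level. Their summed level was 1443, 4988 and 6614 CPM in shChi3l1 libraries 1, 2 and 3, against 2020, 2834, 1745 and 2303 CPM in shSC libraries 1 to 4. By sum, shChi3l1 2 and 3 were thus the highest for these genes as well. The lowest sum was in shChi3l1 1, whereas for the 9 genes it was in shSC 4 (581 CPM, against 673 CPM in shChi3l1 1). Csf1r, also on the pan-macrophage list, gave 249, 2613 and 2359 CPM of the sum in shChi3l1 libraries 1, 2 and 3. Rtn4rl1, a Nogo-receptor relative, had the smallest unadjusted p of the list, at a log2 fold change of 2.96 (SE 0.81; edgeR unadjusted p = 0.00496).

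The genes whose pattern over the 7 libraries was most like the mean of the 9 were found among 6888 expressed genes with established symbols. In order of Pearson's r they were P2ry12 (0.992), Ctsf (0.980), Slco2b1 (0.975), Serinc3 (0.969), Mdm4 (0.967), Nectin2 (0.961), P2ry13 (0.959), Ldlrad4 (0.957), Snx30 (0.950) and Avl9 (0.950). P2ry12, the purinergic receptor that guides microglial processes to injury, and P2ry13 and Slco2b1, an organic anion transporter, were also on the list of other microglia genes. P2ry12 had 20.2, 91.4 and 488 CPM in shChi3l1 libraries 1, 2 and 3, against 21.2, 41, 25.6 and 21.1 CPM in shSC libraries 1 to 4. Without shChi3l1 3 the 10 values of r lay between 0.820 for Nectin2 and 0.970 for Ldlrad4. An r of at least 0.9 was reached by 0.494% of the 6888 genes and by 3 of the 15 other microglia genes among them, whose median r was 0.792. Hpgds, a prostaglandin D synthase, did not follow the pattern, with an r of -0.348 (-0.193 without shChi3l1 3) and a log2 fold change of 0.10 (SE 0.30). It varied little, from 82.5 to 123 CPM.

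Markers of other cell types also differed between libraries, and their part in the microglia values was not tested. B cell markers were highest in shChi3l1 3, with a summed level of 72.8, 110 and 384 CPM in shChi3l1 libraries 1, 2 and 3, against 32.6, 175, 221 and 40.8 CPM in shSC libraries 1 to 4. Of their 9 tested genes 9 were above 0 (median log2 fold change 0.74), where 57.6% of all tested genes were. Without shChi3l1 3 it was 1 of 10, with a median of -1.04, where 55.8% of all tested genes were above 0. Pax5 was under 1 CPM in every library. Oligodendrocyte markers were highest there too, at 135, 223 and 327 CPM in shChi3l1 libraries 1, 2 and 3, against 191, 234, 230 and 108 CPM in shSC libraries 1 to 4, with Mog and Cldn11 at 0 in shChi3l1 3. Of the 8 tested, 8 were above 0 (median 0.54), and without shChi3l1 3 it was 3 (median -0.14). Tumour and glial markers were lowest in shChi3l1 3 and highest in shSC 4, at 94.9, 52.2 and 25.4 CPM in shChi3l1 libraries 1, 2 and 3, against 45.1, 79.9, 50.3 and 349 CPM in shSC libraries 1 to 4, and Egfr, Ncan and Olig2 were at 0 in shChi3l1 3. Of the 13 tested, 3 were above 0 (median -1.07), and without shSC 4 it was 9 (median 0.15).

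**Figure D5:**
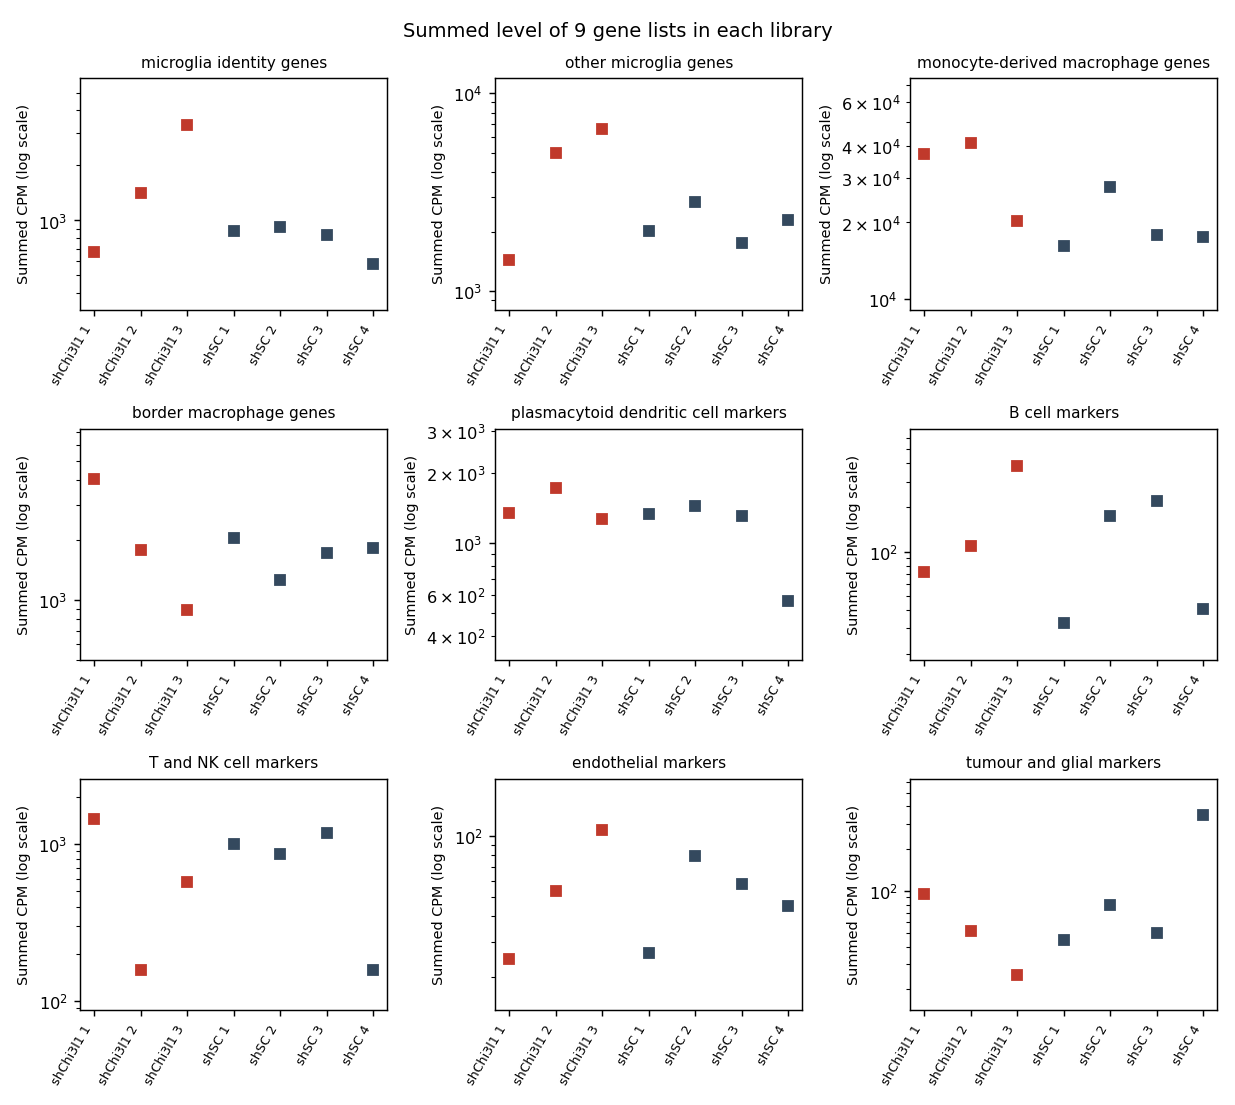
Summed CPM (vertical, log scale) of the 9 microglia identity genes and of 8 other gene lists in the 3 shChi3l1 libraries (red, left) and the 4 shSC libraries (dark, right). Microglia genes of both lists are highest in shChi3l1 3 and shChi3l1 2 and low in shChi3l1 1. The border macrophage sum runs the other way within shChi3l1, from 4056 CPM in shChi3l1 1 to 892 CPM in shChi3l1 3. Most of that sum comes from Ms4a7 (2491 and 487 CPM in these libraries) and Clec4n (1392 and 258 CPM). The other genes of that list went either way, with Mrc1 higher in shChi3l1 3 (5.41 and 16.9 CPM) and Pf4 lower (48.4 and 9.68 CPM).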

How the data were processed

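RNA of sorted macrophages was profiled in 7 libraries. Per the labels' protocols, tumours were digested for 15 min at 37 °C with collagenase IV, 10 ng of RNA went into SMART-Seq ultra low input cDNA synthesis, and 1 ng of that cDNA was tagmented with Nextera XT, a kit that keeps no strand. Amplification from little RNA adds spread beyond counting error, and reads of overlapping genes cannot be separated. The authors deposited raw counts (whole numbers) for each gene, together with exon coordinates and lengths. Trim Galore, HISAT2, featureCounts and mm10 are named in the submitters' processing notes; the sources used here give no versions or settings.

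Each file lists 55385 gene IDs, of which 55144 had a symbol in GENCODE M21 ignoring version; the 241 others took at most 0.00179% of reads. All 21 pairs of libraries differed beyond sampling noise, with a chi-square of at least 138.6 per gene. Groups and replicate numbers came from sample titles. After filterByExpr (minimum count 10) and TMM scaling, the hairpin difference was tested by the quasi-likelihood F test of edgeR 4.0.16 (R 4.3.3, robust dispersion) with hairpin as the only term, adjusted by Benjamini-Hochberg over 15448 genes. CPM use TMM-scaled totals, 0.5 was added to counts before logarithms, and standard errors come from the F statistic. The common dispersion was a coefficient of variation of 58.3%. The fit was also run on simulated counts with fold changes put in. The outcome is not reported here, so the size of difference that the test could call is not given. Correlations were computed in Python 3.11.15 with numpy 2.4.6.

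The 9 genes, the 17 gene lists and the rules were chosen with earlier results of these data known. Genes named were the 9, the 10 most like their mean (mean log2 CPM of at least 3, established symbol), and members of a list that are its most abundant or of smallest p, given where a result turns on them; others named from lists were chosen after their values were seen. Replicates 1 to 3 are called pairs in the labels, with no stated shared day or animal. Deviations from group means correlated at 0.306, 0.26 and 0.188 within them, above the limit of 0.1 taken for pairing. Libraries of unlike number exceeded it too, at 0.322 between shChi3l1 3 and shSC 2 and 0.2 between shChi3l1 2 and shSC 4. The block was left to an alternative. Others were DESeq2 1.42.0's size factors and Wald test, plain totals, other filters, a pseudocount of 2, length offsets (loess span 0.5) and leaving out libraries.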

Additional observations from a re-analysis of the deposited data

How the results depend on the processing

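None of the 9 genes passed an adjusted p of 0.05 under any of the 16 fits; the lowest adjusted p was 0.07828, for Slc2a5 in DESeq2's Wald test, which called 1 gene of all tested where edgeR called 0. Of 135 alternative values of the 9 log2 fold changes, 133 kept their direction. Leaving out 1 library in turn gave a median log2 fold change of 0.32 to 2.13 (0.32 without shChi3l1 3, 2.13 without shChi3l1 1) and a median pairwise r of 0.382 to 0.879; for Fcrls it gave -0.20 to 2.45. Without shChi3l1 3 and shSC 4 together the median log2 fold change was 0.46 and Tmem119 was at -0.01. With the replicate block the median r, of deviations from pair means, was 0.942, and the block changed no call. The deviations of both libraries in a pair mirror each other, so this r rests only on the difference of each pair. It cannot be set beside the r over single libraries. The median log2 difference of the 9 genes was -0.42, 0.75 and 2.62 in pairs 1, 2 and 3. The part of pair 3 in this r was not tested. Scaling by plain totals moved the median of all genes to -0.13 and the split at an unadjusted p under 0.05 from 140 higher and 89 lower to 79 and 165; relative to the median of all genes, the 9 lay at 0.54 to 4.24 with plain totals. The 229 genes at an unadjusted p under 0.05 became 927 with no low-count filter, 435 with the block, 350 with DESeq2, 908 without shChi3l1 1, 143 without shSC 4 and 145 without shChi3l1 3 and shSC 4. Sall1 and Slc2a5 rest on 9 and 10 reads in their lowest library.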

Other observations

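The lists given here moved with single libraries, so each median log2 fold change is followed by its range when 1 library at a time was left out. Among microglia transcription factors outside the 9, 9 of 10 tested were above 0, where 57.6% of all tested genes were. Their median was 0.33, with -0.05 (3 of 10 above 0) without shChi3l1 3 and 0.60 without shChi3l1 1 as its ends. The myeloid master factor Spi1 was at 0.03 (SE 0.33). Genes of activated microglia had 12 of 15 above 0 and a median of 0.42, which ran between 0.01 (8 of 15) without shChi3l1 2 and 0.76 without shChi3l1 3. In that list Csf1, which encodes a growth factor of macrophages, had the smallest unadjusted p, with 3.19, 56.2 and 58.1 CPM in shChi3l1 libraries 1, 2 and 3, against 7.3, 14.5, 3.38 and 11.1 CPM in shSC libraries 1 to 4. Monocyte-derived macrophage genes had 11 of 15 above 0 and a median of 0.30, which ran between 0.07 without shChi3l1 1 and 0.41 without shSC 1 and was 0.12 without shChi3l1 2. Border macrophage genes had 5 of 10 tested above 0 and a median of 0.00, with ends of -0.25 without shChi3l1 2 and 0.31 (9 of 10) without shSC 4. None of the genes of these lists passed an adjusted p of 0.05 in edgeR's test.

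Pan-macrophage genes had a median of 0.28, between 0.11 without shSC 3 and 0.64 without shChi3l1 1. Neutrophil markers had -0.95 (6 tested), between -1.74 (5 tested) without shSC 1 and -0.65 (8 tested) without shChi3l1 3. The low-count filter was run anew in each fit, so in some lists the genes tested changed as well. The part of that change in the medians was not tested. The next 5 medians changed sign with the library left out. That of erythroid markers was -0.85, and ran between -2.18 (0 of 5 above 0) without shChi3l1 3 and 0.45 (5 of 5 above 0) without shSC 4. Fibroblast and pericyte markers had -1.79 (7 tested), and ran between -2.01 (7 tested) without shChi3l1 3 and 0.64 (6 tested) without shSC 4. Their median was 0.30 (10 tested) without shChi3l1 1 and 0.34 (10 tested) without shChi3l1 2. Neuron markers had -0.05 (6 tested), and ran between -0.56 (7 tested) without shChi3l1 1 and 0.56 (8 tested) without shChi3l1 2. Conventional dendritic cell markers had -0.06, and ran between -0.41 without shChi3l1 3 and 0.27 without shSC 2. T and NK cell markers had -0.07, and ran between -0.41 without shSC 4 and 0.45 without shSC 3.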
